A study of Mus musculus with 8 samples.

Results

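The genes of the Notch pathway described here are 4 receptors (*Notch1*, *Notch2*, *Notch3* and *Notch4*), 3 ligands (*Jag1*, *Jag2* and *Dll1*) and 3 target genes (*Hes1*, *Hey1* and *Heyl*), taken as the rows of the count table that bear these names, and all 10 were found once each among the 54658 gene names of the table. They were measured by RNA-Seq in primary articular chondrocytes isolated by collagenase digestion from the femoral heads of wild-type mice aged 3 weeks and cultured in serum-containing medium. Treatment was 1 ng/mL IL-1β for 24 h in 4 samples and vehicle in the other 4. Apart from the cytokine, the labels give no difference between the groups.

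Notch receptors are single-pass membrane proteins that are activated by ligands of the Jagged and Delta families on a neighbouring cell. Ligand binding lets an ADAM protease and then the γ-secretase complex cut the receptor, and the released intracellular domain joins RBPJ and a Mastermind coactivator on DNA to switch on genes such as those of the HES and HEY families of repressors. In cartilage, the pathway is known for restraining the early steps of chondrocyte differentiation and for effects on adult joint cartilage that depend on how long and how strongly it is active.

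The promoters of *Notch1*, *Notch2* and *Dll1* are shown as examples of genes that went in opposite directions with IL-1β, a cytokine that activates NF-κB. Each covers 250 bases before to 50 bases after the gene start in RefSeq (GRCm38.p6), 5′ to 3′ on the strand of the gene, with matches to the NF-κB motif on either strand in capitals. They lie at chr2:26503773-26504072 (minus strand), chr3:98013288-98013587 (plus strand) and chr17:15375774-15376073 (minus strand), respectively.
Notch1: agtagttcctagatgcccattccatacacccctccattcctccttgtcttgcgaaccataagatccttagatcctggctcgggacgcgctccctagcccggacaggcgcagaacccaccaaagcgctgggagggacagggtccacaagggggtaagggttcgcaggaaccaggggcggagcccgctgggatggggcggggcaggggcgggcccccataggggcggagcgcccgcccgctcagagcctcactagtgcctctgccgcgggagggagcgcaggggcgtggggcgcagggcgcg
Notch2: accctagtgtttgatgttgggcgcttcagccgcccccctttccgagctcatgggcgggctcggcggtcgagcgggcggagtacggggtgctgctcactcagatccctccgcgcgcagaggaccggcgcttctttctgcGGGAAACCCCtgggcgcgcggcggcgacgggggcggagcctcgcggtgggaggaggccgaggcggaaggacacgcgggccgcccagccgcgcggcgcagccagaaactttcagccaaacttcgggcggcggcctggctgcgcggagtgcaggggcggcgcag
Dll1: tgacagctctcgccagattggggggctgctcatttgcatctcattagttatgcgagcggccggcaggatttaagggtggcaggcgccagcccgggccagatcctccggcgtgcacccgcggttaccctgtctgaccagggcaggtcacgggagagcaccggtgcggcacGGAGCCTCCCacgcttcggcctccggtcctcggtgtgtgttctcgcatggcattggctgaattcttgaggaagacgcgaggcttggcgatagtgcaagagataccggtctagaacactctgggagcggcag

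The *Notch2* promoter held 1 NF-κB match, GGGAAACCCC in the direction of the gene, from 112 to 103 bases before the start. The *Dll1* promoter printed above held 1 match on the opposite strand, GGAGCCTCCC as read along the gene, from 81 to 72 bases before the start, while its other RefSeq promoter held none. The *Notch4* promoter also held 1 match on the opposite strand, GGAACTCCCC from 168 to 159 bases before the start. Those of *Notch1*, *Notch3*, *Jag1* and *Jag2* held no match, and 8.46% of the 32851 mouse promoters of the same length held one. The letters TGGGAA, the core of the sequence that RBPJ binds, were found on neither strand of the 8 promoters available for 7 of the 10 genes, against 25.6% of all promoters. These promoters were rich in G and C, with 55.7% (*Jag1*) to 86.0% (*Jag2*) against a median of 52.7% over all promoters. The other *Dll1* promoter (chr17:15376883-15377182) and that of *Jag2*, which also fell, held no match and were not printed. The printed *Dll1* promoter lies within the span of the gene given below. A match gives the letters only, and binding was not measured. *Hes1*, *Hey1* and *Heyl* had no entry in the promoter table.

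The study these samples belong to centres on miR-146a-5p, so the mature miRNA (RefSeq, chr11:43374435-43374456, minus strand) is printed with its seed, bases 2 to 8, in capitals. Below it are the sites for this seed in 3′ UTRs of Notch pathway genes, at most 28 bases each, with the paired letters and the A opposite the first base of the miRNA in capitals. They were read from the longest coding transcript of each gene (GENCODE vM21, GRCm38) at chr2:26459253-26459280 (minus strand, *Notch1*), chr3:98148665-98148692 (plus strand, *Notch2*), chr12:83794803-83794830 (minus strand, *Numb*) and chr5:53654335-53654362 (plus strand, *Rbpj*).
miR-146a-5p: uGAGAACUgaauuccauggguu
Notch1: aaaataaactAGTTCTCAgagccttgat
Notch2: acacacagtagGTTCTCAgtgaagacgt
Numb: tattttaaatAGTTCTCAatattaaaaa
Rbpj: taactgagtctGTTCTCAgaatctgttg

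*Notch1* carried an 8mer, the full match to the seed followed by A, at nucleotides 261 to 268 of a 3′ UTR of 1628 bases. *Notch2* carried a weaker kind of site, a match to positions 2 to 7 followed by A, at nucleotides 1232 to 1238 of 2917. The other 8 genes carried no site. Of 3 further pathway genes searched, *Numb*, which encodes an inhibitor of Notch, carried an 8mer, *Rbpj*, the DNA-binding partner of the receptors, carried the weaker kind, and *Numbl*, a relative of *Numb*, carried none. Of 11895 genes tested for expression with a 3′ UTR, 20.8% carried at least 1 site, here also counting a full seed match without the A. The share was 22.5% of the genes that were higher with IL-1β, 22.5% of those that were lower and 19.4% of the rest. A share for the 8mer alone was not computed. As given below, *Notch1*, with the 8mer, was lower with IL-1β, and *Notch2*, with the weaker kind, was higher. The miRNA itself was not measured in these libraries, and the study reported it higher with IL-1β in separate miRNA-Seq. Its part in these changes was not tested.

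Total counts ranged from 10992355 to 17104351 in the IL-1β samples and from 13970959 to 17456063 in the vehicle samples, and TMM factors from 0.9843 to 1.01. At these totals, 3 counts, the floor set for an abundance in a library, were 0.172 to 0.273 CPM (the reads of a gene scaled to a common library total), which covers counting error only. All 8 chondrocyte markers, *Col2a1* and *Acan* among them, were detected and lower with IL-1β, and their summed level was 4180 to 4590 CPM with IL-1β against 16100 to 16700 with vehicle. Of 8 endothelial markers, 7 (among them *Pecam1* and *Cdh5*) were under 1 CPM in every sample, none was called, and the sums were 2.13 to 2.52 and 1.73 to 2.64 CPM. Of 8 myeloid and leukocyte markers, 5 (among them *Ptprc*) were under 1 CPM in every sample, 1 was higher and 1 lower, and the sums were 15.9 to 19.0 and 11.7 to 13.0 CPM. The pan-leukocyte marker and the endothelial junction markers named here thus stayed under 1 CPM. The remaining markers of the leukocyte list, *Csf1r*, *Cd68* and *Lyz2*, reached 1 CPM in at least 1 sample, and the leukocyte sum was higher with IL-1β. Osteoblast markers (112 to 128 against 222 to 228 CPM, 5 of 6 lower and none higher) also moved with the treatment, with *Dmp1* under 1 CPM in every sample. So did fibroblast and synovial markers (2060 to 2180 against 915 to 966 CPM, 3 of 7 higher and 1 lower). Of these, *Thy1*, *Dpp4* and *Pi16* were under 1 CPM in every sample, and the sum came from the other 4. The part of both lists in the Notch results was not tested. In bulk RNA, fewer cells of a type and less RNA per cell cannot be told apart. The labels do not say that the samples were separate cultures or animals, so p-values measure the spread between these samples, which may be technical.

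Of the 10 genes, 9 passed the filter on low counts (a CPM above 1 in at least 4 samples) and were tested by edgeR's quasi-likelihood test, with p-values adjusted over all 14404 genes tested. IL-1β was associated with a fall of *Notch1*, of both weakly expressed ligands, *Jag2* and *Dll1*, and of the targets *Hes1* and *Hey1*, while *Notch2*, by far the most abundant receptor, rose. In numbers, 6 genes passed an adjusted p of 0.05, 1 higher and 5 lower, 3 did not, and *Heyl* could not be tested. Among all genes tested, 40.2% passed, 20.4% higher and 19.8% lower. With the further requirement of a log2 fold change beyond 1, by which differentially expressed genes (DEGs) are meant here, *Jag2*, *Dll1* and *Hey1* were DEGs, all lower, and none was a higher DEG, against 2.35% and 2.86% of all genes. None of the 9 genes reached a log2 fold change of 2 in either direction, a stricter limit that the study also used. The samples of the groups did not overlap for 6 genes, against 36.8% of all genes. The median log2 fold change was -0.51 over the 9 genes and -0.0012 over all genes tested. These counts describe the genes that passed the filter and are not a test of the pathway, since *Jag2* and *Dll1* passed it through all 4 vehicle samples and only 1 and 2 IL-1β samples, and *Notch4* through all 4 IL-1β samples and 1 vehicle sample.

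**Figure D1:**
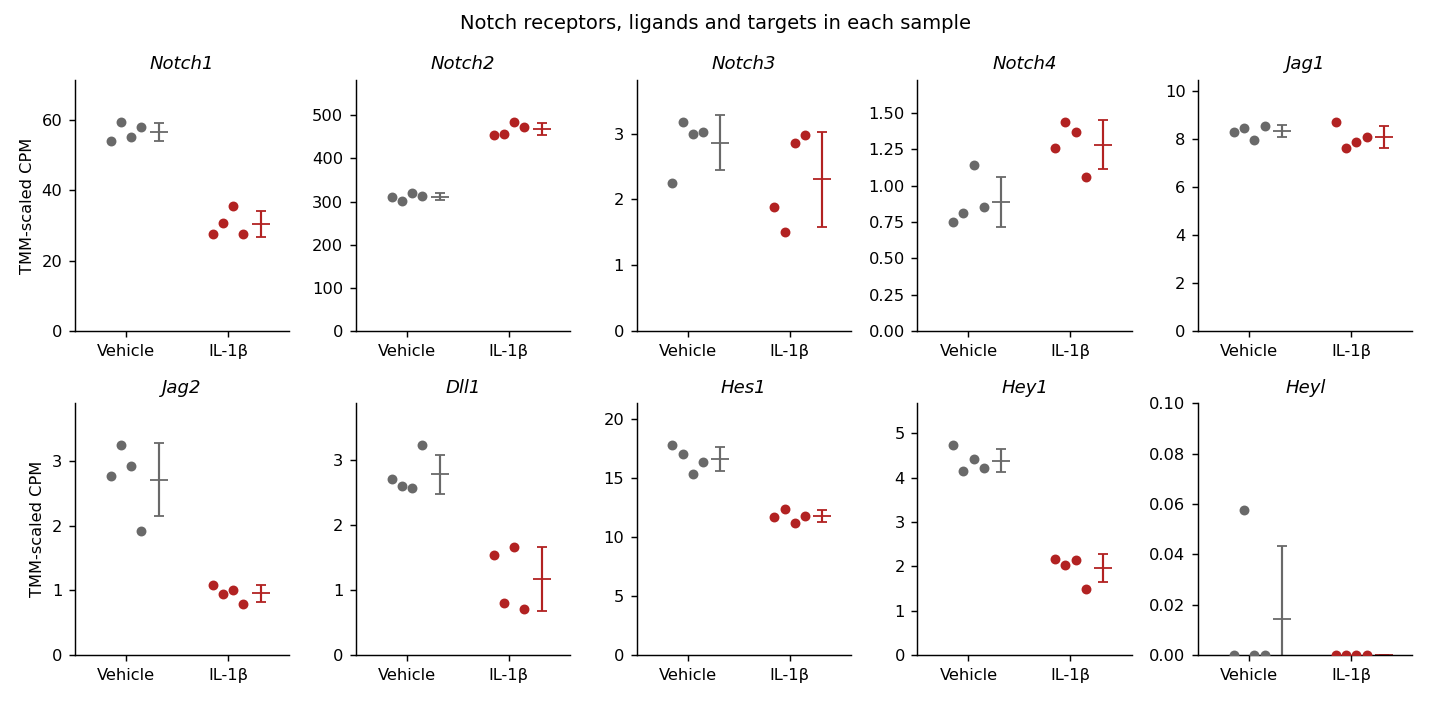
Each panel shows 1 Notch pathway gene, with TMM-scaled CPM from 0 on the vertical axis, 1 point per sample (4 vehicle, grey, and 4 IL-1β, red) and the mean ± SD beside the points. The groups were apart for *Notch1*, *Notch2*, *Jag2*, *Dll1*, *Hes1* and *Hey1*, overlapped for *Notch3*, *Notch4* and *Jag1*, and *Heyl* had 1 read in a single sample.

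*Notch2* encodes the receptor with the highest level in these cells. Its CPM in IL-1β replicates 1 to 4 was 455, 457, 485 and 473, and in vehicle replicates 1 to 4 it was 311, 301, 321 and 314. The lowest IL-1β sample, replicate 1, was well above the highest vehicle sample, with means of 467 ± 14.2 and 312 ± 8.56 CPM (SD, n = 4 each), a ratio of 1.5. The log2 fold change was 0.58 (SE 0.0325, 95% interval 0.52 to 0.65, edgeR adjusted p = 6.65e-15). The gene (chr3, 98013527 to 98150361, plus strand, GRCm38) shares 5.02% of its exon bases with *Gm42820*, a provisional gene model on the same strand, which had 2.39 and 1.61 CPM with IL-1β and vehicle.

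*Notch1*, the paralog best known from lymphocyte and vessel development, moved the other way. It stood at 27.7, 30.6, 35.5 and 27.7 CPM in the IL-1β samples and at 54.1, 59.5, 55.0 and 58.0 CPM in the vehicle samples. The highest IL-1β sample, replicate 3, was still well under the lowest vehicle sample. The means were 30.4 ± 3.66 and 56.7 ± 2.54 CPM (SD, n = 4 each), so the level with IL-1β was 53.6% of that with vehicle. The log2 fold change was -0.89 (SE 0.0587, 95% interval -1.01 to -0.77, edgeR adjusted p = 3.18e-13), short of the DEG threshold. *Notch1* (chr2, 26457903 to 26516663, minus strand) shares 10.4% of its exon bases with *0610009E02Rik* and *Gm13568* on the other strand. Whether counting used the strand is not given in the sources used here, so reads in those bases cannot be assigned. With IL-1β and vehicle, *0610009E02Rik* had 2.43 and 1.85 CPM, and *Gm13568* had no read. These levels do not show how many *Notch1* reads the overlap affected, which was not tested.

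*Notch3*, a receptor known from the mural cells of vessels, was counted at 21, 21, 48 and 42 reads after IL-1β and at 39, 55, 42 and 46 reads after vehicle. In CPM these were 1.89, 1.51, 2.85 and 2.98 with IL-1β against 2.25, 3.18, 3.00 and 3.02 with vehicle. IL-1β replicates 1 and 2 were below all vehicle samples and replicates 3 and 4 were within their range. For *Notch3* the log2 fold change was -0.28 (95% interval -0.69 to 0.13, edgeR adjusted p = 0.292). The gene shares 6.03% of its exon bases with *Gm17276* on the other strand, which had 0.197 CPM with IL-1β and 0.418 with vehicle. Of 8 mural markers, *Rgs5*, *Myh11*, *Kcnj8* and *Abcc9* were under 1 CPM in every sample, and the sum was 392 to 442 CPM with IL-1β against 797 to 870 with vehicle. Most of it was *Cspg4*, and without *Cspg4* and *Notch3* it was 4.24 to 4.76 against 15.5 to 17.7 CPM. The part of these markers in the *Notch3* values was not tested.

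*Notch4*, a receptor known from endothelial cells, was close to the limit of this depth. Its reads numbered 14, 20, 23 and 15 with IL-1β and 13, 14, 16 and 13 with vehicle. In CPM, the IL-1β samples stood at 1.26, 1.44, 1.37 and 1.06 and the vehicle samples at 0.75, 0.809, 1.14 and 0.854. IL-1β replicate 4 fell under vehicle replicate 3, so the groups overlapped. Its log2 fold change was 0.55 (95% interval 0.02 to 1.08), with an unadjusted p of 0.0425 and an adjusted p of 0.0936 in edgeR's test, and the gene was not called.

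**Figure D2:**
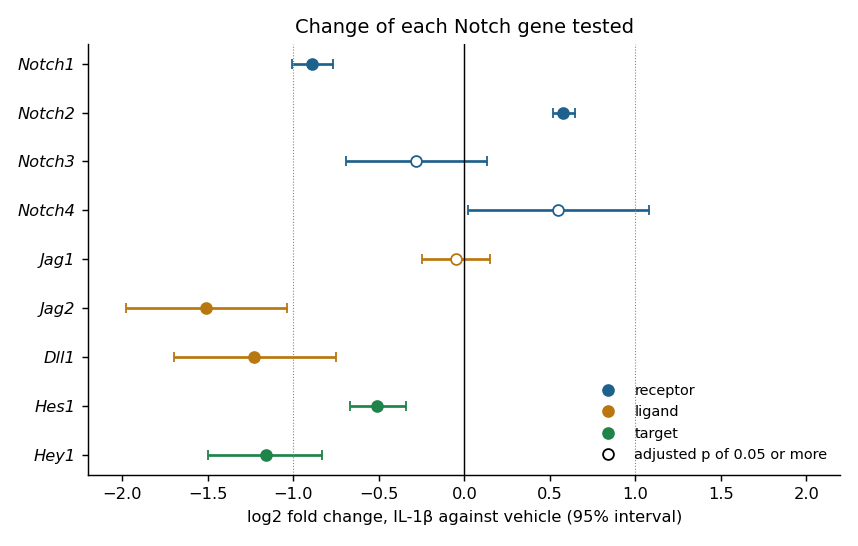
Log2 fold changes of IL-1β against vehicle (horizontal axis) with 95% intervals from edgeR are plotted for the 9 genes tested, coloured by role, open where the adjusted p was 0.05 or more; dotted lines mark a log2 fold change of 1 in either direction. *Notch2* is the only filled point right of 0, at 0.58, and *Jag2*, *Dll1* and *Hey1* lie beyond -1.

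Among the ligands, *Jag1* differed by less than the spread between samples. This ligand of the Jagged family had 8.74, 7.64, 7.90 and 8.08 CPM in the IL-1β samples and 8.31, 8.49, 7.99 and 8.54 CPM in the vehicle samples. The lowest and the highest of all 8 samples were both treated with IL-1β. The means were 8.09 ± 0.468 and 8.33 ± 0.252 CPM (SD, n = 4 each), and the log2 fold change was -0.05 (95% interval -0.25 to 0.15, edgeR adjusted p = 0.743).

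*Jag2*, the other Jagged ligand, had the largest fold change of the 9 genes tested. It was counted at 12, 13, 17 and 11 reads with IL-1β and at 48, 56, 41 and 29 reads with vehicle. The corresponding CPM were 1.08, 0.938, 1.01 and 0.78 against 2.77, 3.24, 2.92 and 1.91. Vehicle replicate 4 was the lowest of its group and still above every IL-1β sample. The level with IL-1β was 35.2% of that with vehicle, at means of 0.952 ± 0.129 and 2.71 ± 0.569 CPM (SD, n = 4 each). The log2 fold change was -1.51 (SE 0.228, 95% interval -1.98 to -1.04, edgeR adjusted p = 3.2e-06).

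*Dll1*, a ligand of the Delta family, was as scarce. Its reads were 17, 11, 28 and 10 with IL-1β and 47, 45, 36 and 49 with vehicle. In CPM these were 1.53, 0.793, 1.66 and 0.709 against 2.71, 2.60, 2.57 and 3.22. The IL-1β samples spread more widely, with replicates 1 and 3 well above replicates 2 and 4, and all were below the vehicle samples. The means were 1.17 ± 0.493 and 2.77 ± 0.303 CPM (SD, n = 4 each), and the log2 fold change was -1.23 (SE 0.232, 95% interval -1.70 to -0.75, edgeR adjusted p = 8.09e-05). *Dll1* (chr17, 15367354 to 15376872, minus strand) shares 20.5% of its exon bases with the noncoding *A930024N18Rik* on the other strand, the largest overlap among these 10 genes. That gene had 0 to 9 reads per sample, with mean levels of 0.0864 CPM (IL-1β) and 0.285 CPM (vehicle).

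The target *Hes1*, a repressor that is an early readout of Notch but is also set by other pathways, was lower in all IL-1β samples. Its CPM was 11.7, 12.4, 11.2 and 11.8 with IL-1β and 17.8, 17.1, 15.4 and 16.4 with vehicle. The IL-1β samples lay close together and below the lowest vehicle sample, replicate 3. With means of 11.8 ± 0.508 and 16.7 ± 1.01 CPM (SD, n = 4 each), the level was 70.7% of that with vehicle. In edgeR's fit, the log2 fold change was -0.51 (SE 0.0795, 95% interval -0.67 to -0.34, edgeR adjusted p = 6.11e-06).

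*Hey1*, a related repressor, fell further. It was counted at 24, 28, 36 and 21 reads with IL-1β and at 82, 72, 62 and 64 reads with vehicle. In CPM these were 2.16, 2.02, 2.14 and 1.49 against 4.73, 4.16, 4.42 and 4.21. The groups were far apart relative to their spread, with the lowest IL-1β value in replicate 4. The means were 1.95 ± 0.315 and 4.38 ± 0.26 CPM (SD, n = 4 each), or 44.6% of the vehicle level. On the log2 scale, the fold change was -1.16 (SE 0.163, 95% interval -1.50 to -0.83, edgeR adjusted p = 9.88e-07). *Heyl*, the third target, had 1 read in vehicle replicate 2 and 0 reads in the other samples, which is under the floor of 3 counts, so no fold change is given.

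To compare genes with each other, CPM was divided by the exon length in kilobases that the table lists. On this scale *Notch2* was the highest of the 10 genes in both groups, at 43.3 ± 1.31 CPM per kilobase with IL-1β and 28.9 ± 0.794 with vehicle (SD, n = 4 each). *Hes1* followed at 5.78 ± 0.249 and 8.18 ± 0.498, and *Notch1* at 2.13 ± 0.257 and 3.98 ± 0.178. These top 3 ranks were the same in both groups, with no overlap between the samples of neighbouring genes.

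Below them, *Jag1* stood at 1.39 ± 0.0804 CPM per kilobase with IL-1β and at 1.43 ± 0.0432 with vehicle. *Hey1* was next at 0.598 ± 0.0965 and 1.34 ± 0.0797. Their samples overlapped with vehicle and were apart with IL-1β. With vehicle the order went on with *Dll1* (0.658), *Jag2* (0.389), *Notch3* (0.356) and *Notch4* (0.11), in which only *Jag2* and *Notch3* overlapped. With IL-1β it went on with *Notch3* (0.287), *Dll1* (0.278), *Notch4* (0.159) and *Jag2* (0.137), in which each neighbouring pair overlapped. Beyond neighbours, the samples of *Jag2* (0.112 to 0.155) were below all those of *Dll1* (0.168 to 0.394) and *Notch3* (0.188 to 0.37), and those of *Notch4* (at most 0.179) were below all those of *Notch3*. The listed length of *Notch3*, 8044 bases, differs from the 8089 exon bases of vM21, and the lengths of the other 9 genes are the same.

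**Figure D3:**
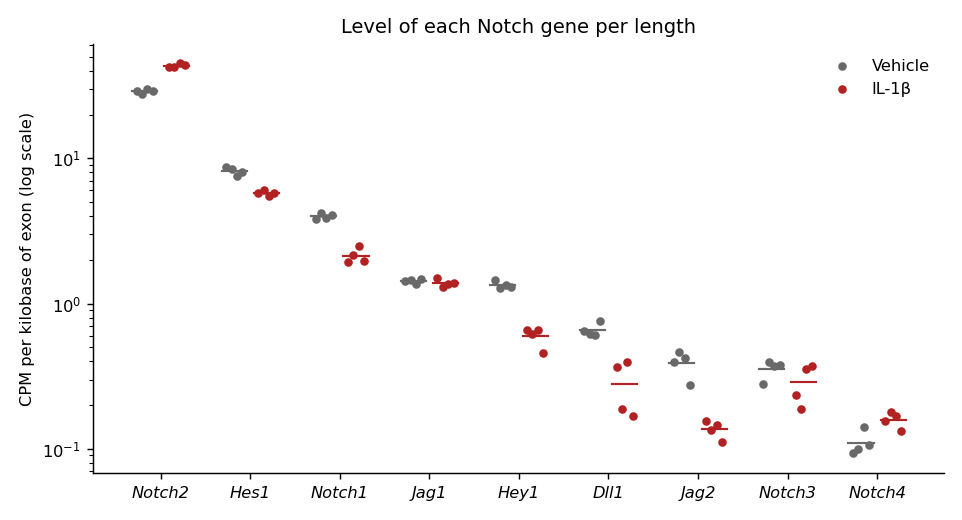
CPM per kilobase of exon (vertical axis, log scale) is shown for the 9 Notch pathway genes above 0 in every sample, 1 point per sample with the group mean as a line, in the order of the vehicle means. *Notch2* rises from 28.9 to 43.3 at the top, and the genes below 1 CPM per kilobase with vehicle come closer together with IL-1β.

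As sums of these levels, the 4 receptors together stood at 45.9 ± 1.58 CPM per kilobase with IL-1β and 33.4 ± 0.698 with vehicle (SD, n = 4 each). *Notch2* made up 94.4% ± 0.479 of that sum with IL-1β and 86.7% ± 0.789 with vehicle, while the share of *Notch1* was 4.64% ± 0.441 and 11.9% ± 0.675. The summed receptor level thus followed *Notch2* and was higher with IL-1β although *Notch1* was lower.

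The 3 ligands summed to 1.8 ± 0.185 CPM per kilobase with IL-1β and 2.48 ± 0.0591 with vehicle. *Jag1* was the main ligand in both groups, at 77.3% ± 5.37 and 57.7% ± 0.65 of the sum, and the share of *Dll1* was 15.1% ± 5.13 and 26.6% ± 2.72. The 3 targets summed to 6.38 ± 0.245 and 9.53 ± 0.544, of which *Hes1* held 90.6% ± 1.5 and 85.9% ± 0.8. These sums and shares are descriptions (SD, n = 4 each) and were not tested.

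Genes of the same role were also set against each other by the log2 ratio of their counts within a sample, which does not depend on the scaling between libraries. The ratio of *Notch1* to *Notch2* was -4.04, -3.90, -3.77 and -4.09 with IL-1β and -2.53, -2.34, -2.55 and -2.44 with vehicle. The means differed by -1.49. Since the genes were each apart between the groups, in opposite directions, their ratio had to be apart as well, and it is given as a description with no test.

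The ratio of *Jag1* to *Dll1* was 2.51, 3.27, 2.25 and 3.51 with IL-1β and 1.62, 1.71, 1.64 and 1.41 with vehicle, a difference of 1.29. With *Jag1* nearly level and *Dll1* apart between the groups, this ratio restates the fall of *Dll1* and is likewise a description. The ratio of *Hes1* to *Hey1* was 2.44, 2.62, 2.38 and 2.99 against 1.91, 2.04, 1.80 and 1.96, a difference of 0.68. Both genes were lower with IL-1β, and every IL-1β ratio exceeded every vehicle ratio, so *Hey1* fell further than *Hes1* (exact permutation test over samples, two-sided, p = 0.0286, n = 4 each). The value 0.0286 is the smallest that 4 against 4 samples can give. Benjamini-Hochberg adjustment over the 3 ratios computed could not change it, since all 3 stood at this value. With any 1 sample left out, p was 0.0571, the smallest that 3 against 4 can give. A ratio of *Hey1* to *Heyl* could not be formed.

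**Figure D4:**
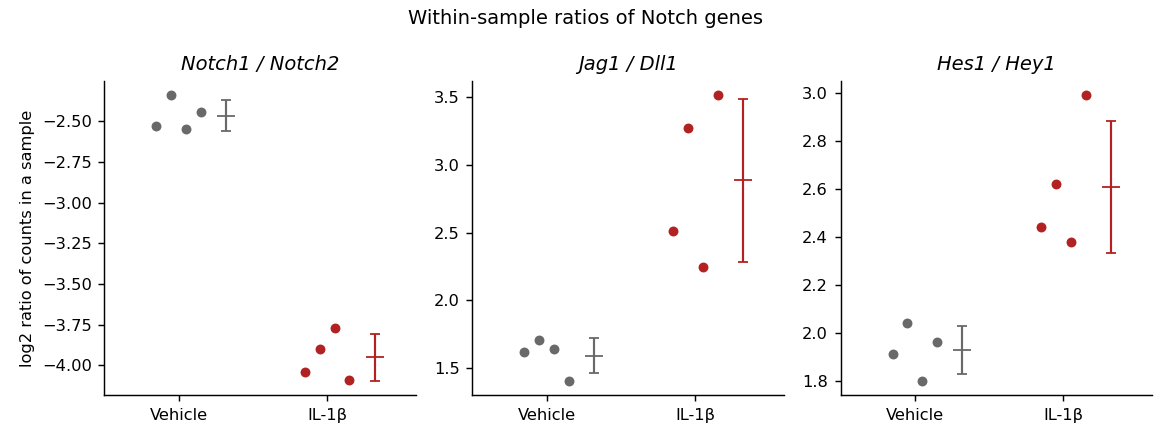
The log2 ratio of counts of 2 genes in the same sample (vertical axis) is plotted for *Notch1*/*Notch2*, *Jag1*/*Dll1* and *Hes1*/*Hey1*, 1 point per sample, with the mean ± SD of the 4 vehicle (grey) and 4 IL-1β (red) samples. The groups are apart in every panel, by -1.49, 1.29 and 0.68 on average, and the vertical axes do not start at 0.

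The rest of the pathway was described with 67 other genes in 8 lists by role, of which 55 passed the filter on low counts. Of these, 20 were higher and 10 lower with IL-1β (edgeR adjusted p under 0.05) and 25 were not called, against 20.4% and 19.8% of all genes tested. In this fit, none had a log2 fold change beyond 1 together with an adjusted p under 0.05, though *Dlk1* was at the limit. The median of the 55 genes was 0.08, beside -0.0012 over all genes. The lists were chosen with results of these samples known and are descriptions.

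Both other ligands that were tested fell. *Dlk1*, a Delta-like protein that lacks the domain with which canonical ligands bind and is known for dampening Notch, had 41.7 ± 5.51 CPM with IL-1β and 83.8 ± 2.81 with vehicle (SD, n = 4 each; log2 fold change -1.0, adjusted p = 1.21e-14 by edgeR). Its relative *Dlk2* had 14.6 ± 0.269 and 21.7 ± 1.15 CPM (log2 fold change -0.57, edgeR adjusted p = 6.66e-08). The Delta family members *Dll3* and *Dll4* did not pass the filter. Of 7 further HES and HEY genes, *Hes6*, known for opposing Hes1, was the only one tested and stood at 5.53 ± 0.684 CPM with IL-1β and 4.26 ± 0.635 with vehicle (log2 fold change 0.38, edgeR adjusted p = 0.0273). This call was lost with DESeq2, with 1 RUVs factor or on leaving out any 1 of 4 samples (IL-1β replicates 1 and 4, vehicle replicates 1 and 2), at adjusted p of 0.0619 to 0.106. The genes *Hes2*, *Hes3*, *Hes5*, *Hes7*, *Hey2* and *Helt* did not pass the filter.

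All 10 genes for receptor cleavage were tested, of which 4 were higher, 1 was lower and 5 were not called (median log2 fold change 0.07). *Psen2*, one of the alternative catalytic subunits of γ-secretase, stood at 25.6 ± 1 CPM with IL-1β and 16.7 ± 1.25 with vehicle (log2 fold change 0.61, edgeR adjusted p = 8.36e-09), with no overlap between the groups. Of 9 genes for receptor glycosylation, 7 were tested and 2 were lower (median 0.0), and the fringe genes *Lfng* and *Mfng* did not pass the filter. *Gxylt2*, which adds xylose to the glucose on receptor repeats, had 2.35 ± 0.671 and 3.43 ± 0.497 CPM (log2 fold change -0.55, edgeR adjusted p = 0.0223). IL-1β replicate 4, at 1.35 CPM, was far below the other 3 samples of its group, which had 2.61 to 2.74 CPM. Without that sample the log2 fold change was -0.35 (edgeR adjusted p = 0.122), and without vehicle replicate 4 it was -0.45 (edgeR adjusted p = 0.0885), so the call rested on these samples.

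Of the 6 genes for ligand ubiquitination and endocytosis, 2 were higher, 1 was lower and 3 were not called (median 0.11). *Epn2*, an endocytic adaptor, stood at 22.0 ± 0.602 and 12.9 ± 0.764 CPM (log2 fold change 0.76, edgeR adjusted p = 4.76e-10). *Neurl1b*, a ubiquitin ligase for ligands, stood at 2.21 ± 0.532 and 3.97 ± 0.656 CPM (log2 fold change -0.80, edgeR adjusted p = 0.000593). The largest change up and the largest change down outside the Delta-like proteins thus fell on the same list.

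Of the 8 genes of the nuclear complex, 5 were higher, 1 was lower and 2 were not called (median 0.14). *Rbpj* stood at 348 ± 11.3 CPM with IL-1β and 251 ± 2.35 with vehicle (log2 fold change 0.48, edgeR adjusted p = 4.17e-13). The coactivator gene *Maml3* stood at 3.97 ± 0.665 and 2.96 ± 0.523 CPM (log2 fold change 0.43, edgeR adjusted p = 0.0383), a call that was lost with DESeq2 (adjusted p = 0.0885), with no filter on low counts (0.0526) and on leaving out any 1 of 5 samples (IL-1β replicates 3 and 4, vehicle replicates 2, 3 and 4; 0.0647 to 0.177). The DNA-binding partner of the receptors was thus higher in the same samples in which *Hes1* and *Hey1* were lower.

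Of 11 corepressor genes, 5 were higher, 1 was lower and 5 were not called (median 0.14). The 2 with the largest fold changes were *Tle2*, of the Groucho family, which was not called (0.31, edgeR adjusted p = 0.295), and *Spen*, which binds RBPJ and was higher (0.27, edgeR adjusted p = 3.23e-08). Of 12 genes for turnover and inhibition, 10 were tested, with 3 higher, 2 lower and 5 not called (median 0.1), and *Dtx1* and *Nrarp* did not pass the filter. *Numbl*, related to the Notch inhibitor *Numb*, stood at 62.2 ± 3.08 and 39.8 ± 2.16 CPM (log2 fold change 0.65, edgeR adjusted p = 1.74e-12). *Numb* itself, which carries the 8mer printed above, was not called (0.13, edgeR adjusted p = 0.156).

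**Figure D5:**
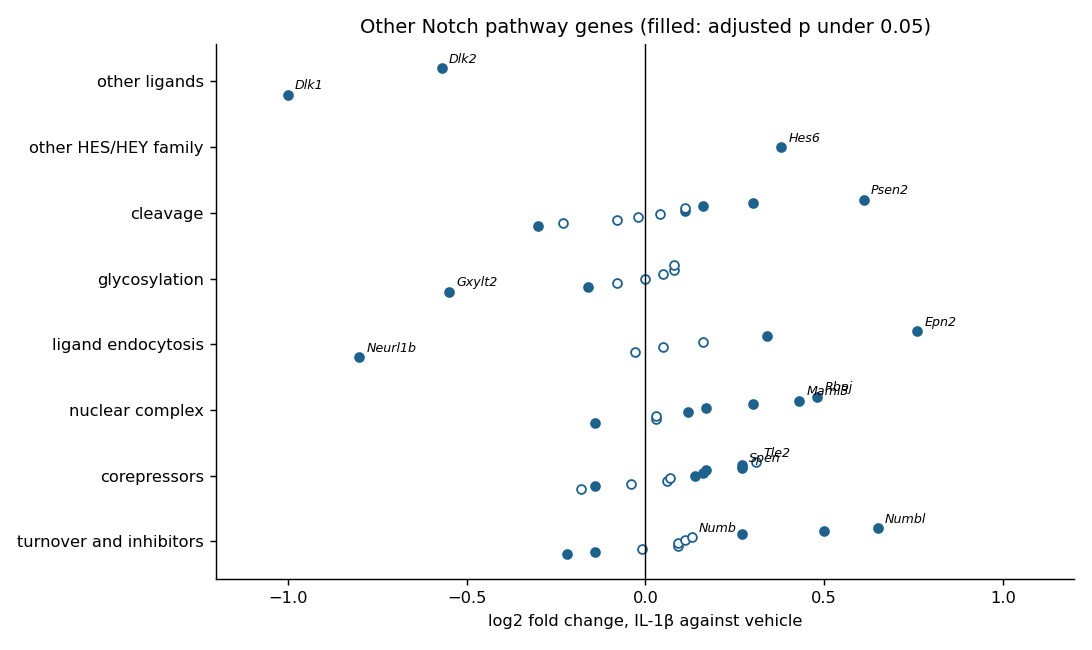
Log2 fold changes of IL-1β against vehicle (horizontal axis) are shown for the 55 other Notch pathway genes tested, 1 point per gene in 8 rows by role, filled where the edgeR adjusted p was under 0.05. The points lie between *Dlk1* at -1.0 and *Epn2* at 0.76, and both tested Delta-like proteins are on the left.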

How the data were processed

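The data are RNA-Seq libraries of 8 chondrocyte samples in 2 groups, set by the treatment label. Before deposit, the authors used cutadapt for trimming, STAR for alignment to mm10 (GENCODE annotation) and featureCounts for counting. The deposited table gives counts (whole numbers) per gene name, beside a column of gene lengths in bases. Whether the counts precede or follow their correction with RUVseq is not given in the sources used here.

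Here, genes were kept where CPM, before TMM scaling, was above 1 in 4 samples or more. TMM-normalized counts of these genes were fitted in R 4.3.3 with edgeR 4.0.16 (limma 3.58.1), treatment being the only term, and compared by the quasi-likelihood test with Benjamini-Hochberg adjustment. Prior degrees of freedom were 20.9. The code was tested on simulated data. Ratios, levels per length and sequence searches used Python 3.11.15, numpy 2.4.6, pandas 2.3.3 and scipy 1.17.1, and figures matplotlib 3.10.9.

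The genes and lists were chosen with earlier results of these data known. All 10 genes are named. Of the other lists, genes called with a log2 fold change beyond 0.5 are named, otherwise the 2 largest, and genes that failed the filter by name. *Numb* is an exception, named for its seed site. The alternatives were DESeq2 1.42.0, its size factors, total library size, 2 other filters on low counts, 1 RUVs factor, the replicate number as a block, and each sample left out in turn. The miRNA-Seq and the other experiments of the study were not analysed here.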

Additional observations from a re-analysis of the deposited data

Results flagged for a closer look

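*Gxylt2* in IL-1β replicate 4 stood at 1.35 CPM, while the other 3 IL-1β samples stood at 2.61 to 2.74 CPM, a gap of 0.909 of the group's range, above Dixon's 95% critical value for 4 samples. *Rbpj* in the same sample stood at 331 CPM, while the other 3 IL-1β samples stood at 353 to 355 CPM, a gap of 0.903 of the range, and all 4 were above the vehicle samples. These were the 2 values set apart in this way among 52 groups of values examined, in which chance alone would give about 2.6. The cause was not tested.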

How the results depend on the processing

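Across 15 alternatives to the fit, the fold changes of the 9 Notch genes kept their direction and their side of the threshold wherever they could be computed. The 6 called genes were called in each alternative except the filter that asked for a CPM above 1 in all samples, which left *Jag2*, *Dll1* and *Notch4* untested and called 4 (1 higher, 3 lower). Of the genes not called, adjusted p ranged from 0.0593 to 0.237 for *Notch4*, 0.138 to 0.694 for *Notch3* and 0.597 to 0.896 for *Jag1*. Of 13 other pathway genes named, the calls of *Hes6*, *Gxylt2* and *Maml3* were lost 15 times in all, at adjusted p of 0.0526 to 0.177. The other 10 stayed on their side of the threshold for adjusted p. The log2 fold change of *Dlk1*, -1.0 in the main fit, ran from -1.05 to -0.94 when 1 sample was left out. It was thus beyond the DEG limit in some settings. With no filter on low counts, 1206 genes in all were DEGs (635 higher, 571 lower) against 751 (412 higher, 339 lower), since more scarce genes were tested. Other pathway genes called numbered 25 to 32 against 30, with 26 to 30 when 1 sample was left out. Deviations from the group means correlated at -0.0699 to 0.0416 between same-numbered samples and at -0.085 to 0.0909 between other pairs. The labels do not say whether the numbers pair the samples, and these correlations cannot settle it. With the replicate block, 6 Notch genes, 30 other pathway genes and 5643 of all genes (5796 without it) were called. For the ratios, leaving out 1 sample gave -1.55 to -1.44 for *Notch1*/*Notch2*, 1.08 to 1.51 for *Jag1*/*Dll1* and 0.55 to 0.76 for *Hes1*/*Hey1*. Only *Hes1*/*Hey1* was read as a test, and its exact permutation p was then 0.0571, the smallest that 3 against 4 can give. With the replicate block its exact sign-flip p was 0.125, the smallest that 4 pairs can give. Neither setting could therefore reach a p under 0.05. Depth limits *Notch4*, *Jag2* and *Dll1*, at 10 to 56 reads per sample, and *Heyl*, which was not detectable. It also limits *Notch3*, at 21 to 55 reads per sample, and *Hey1*, at 21 to 36 reads with IL-1β.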
